A study of Mus musculus with 8 samples.

Results

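Genes of the interferon response and of antigen presentation were followed in mouse hearts at 2 ages. The set was chosen by gene symbol from the platform annotation and holds interferon-inducible GTPases, antiviral effectors, transcription factors of the pathway, genes of major histocompatibility complex (MHC) class I and class II presentation, and a pair of chemokines. Of the 35 genes listed, 33 were measured, by 64 probe sets, out of 18193 genes in all, and Isg15 and Ifi44 are not analysed here. RNA came from whole hearts of female mice, either wild type (WT) or carrying a conditional knock-out (KO) under the MCK driver, at 4 or 10 weeks of age, with 2 mice in each of the 4 groups and 1 Affymetrix Mouse Genome 430 2.0 array per mouse. The MCK (muscle creatine kinase) promoter is active in striated muscle cells, so the immune, endothelial and fibroblast cells of these hearts lie outside the cells in which it is known to act. Each age was taken from its own group of littermates, so where the ages are compared, the effect of age cannot be told apart from that of litter.

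Interferons are secreted signals that act through receptors, kinases of the JAK family and transcription factors of the STAT and IRF families. Interferon gamma is known to act mainly through a promoter element called the gamma-activated site (GAS), and type I interferons through the interferon-stimulated response element (ISRE). The induced genes include GTPases that act on the vacuoles of intracellular microbes, antiviral proteins, and the machinery that shows peptides to T cells. In heart the class II genes are known mainly from resident macrophages and dendritic cells, while class I genes are made by nearly every cell type.

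Promoters from RefSeq (build GRCm38.p6, 250 bases before to 50 bases after the start of a gene) were at hand for 27 of the 33 measured genes. They were searched on both strands for GAAANNGAAA, the core of the ISRE, and for TTCNNNGAA, the core of the GAS. The ISRE letters occurred in 14 of the 32 promoters of these genes (43.8%) and in 3.44% of all 32851 promoters of the same length. The GAS letters occurred in 8 of the 32 (25.0%) and in 8.30% of all. All 6 GTPase genes with a promoter held the ISRE letters, and none of the 3 class II genes with a promoter held either. These 6 promoters, each with a match, are shown because they belong to 5 of the genes that were lower in 10-week KO hearts and to Ifit1. Ifit1 did not pass the test although it carries a pair of ISRE matches. Capitals mark the matches, and a match reads TTTCNNTTTC where the ISRE lies on the strand opposite to the gene.
Irgm2: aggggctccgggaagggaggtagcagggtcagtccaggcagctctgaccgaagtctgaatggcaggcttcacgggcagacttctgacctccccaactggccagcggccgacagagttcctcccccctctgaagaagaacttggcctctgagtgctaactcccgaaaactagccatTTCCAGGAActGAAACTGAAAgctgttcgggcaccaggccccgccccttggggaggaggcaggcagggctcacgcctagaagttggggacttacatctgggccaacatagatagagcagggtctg
Igtp: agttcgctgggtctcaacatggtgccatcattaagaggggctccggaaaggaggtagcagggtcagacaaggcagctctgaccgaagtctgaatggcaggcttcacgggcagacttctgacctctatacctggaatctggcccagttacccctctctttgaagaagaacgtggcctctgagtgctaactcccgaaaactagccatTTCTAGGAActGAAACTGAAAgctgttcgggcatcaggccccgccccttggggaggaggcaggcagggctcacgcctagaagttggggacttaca
Bst2: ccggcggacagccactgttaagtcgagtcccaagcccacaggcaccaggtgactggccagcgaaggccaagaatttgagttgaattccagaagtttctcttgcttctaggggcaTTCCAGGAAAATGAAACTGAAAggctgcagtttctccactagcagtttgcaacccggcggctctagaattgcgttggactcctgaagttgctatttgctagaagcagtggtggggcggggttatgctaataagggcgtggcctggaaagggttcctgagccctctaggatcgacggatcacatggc
Rsad2: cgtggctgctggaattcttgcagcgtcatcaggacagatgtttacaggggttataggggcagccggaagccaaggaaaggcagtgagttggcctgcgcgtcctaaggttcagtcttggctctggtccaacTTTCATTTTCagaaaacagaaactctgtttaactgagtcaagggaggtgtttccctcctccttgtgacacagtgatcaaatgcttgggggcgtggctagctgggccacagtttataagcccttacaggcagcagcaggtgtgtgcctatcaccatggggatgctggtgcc
Irf1: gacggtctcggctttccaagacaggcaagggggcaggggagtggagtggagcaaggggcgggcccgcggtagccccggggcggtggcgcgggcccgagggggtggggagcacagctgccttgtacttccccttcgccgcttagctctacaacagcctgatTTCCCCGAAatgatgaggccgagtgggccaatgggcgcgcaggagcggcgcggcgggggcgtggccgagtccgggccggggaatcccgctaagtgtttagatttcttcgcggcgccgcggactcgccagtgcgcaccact
Ifit1: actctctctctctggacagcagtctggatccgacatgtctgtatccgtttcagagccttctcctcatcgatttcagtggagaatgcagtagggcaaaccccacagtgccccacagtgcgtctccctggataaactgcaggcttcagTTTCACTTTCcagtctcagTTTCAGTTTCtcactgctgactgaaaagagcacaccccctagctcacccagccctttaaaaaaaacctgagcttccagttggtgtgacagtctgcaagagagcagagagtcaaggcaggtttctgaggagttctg
They lie at chr11:58214727-58215026 (plus strand) for Irgm2, chr11:58199306-58199605 (plus) for Igtp, chr8:71537423-71537722 (minus) for Bst2, chr12:26456403-26456702 (minus) for Rsad2, chr11:53769764-53770063 (plus) for Irf1 and chr19:34640639-34640938 (plus) for Ifit1. In Irgm2 and Igtp a GAS match stood 2 bases before an ISRE match, with the ISRE match beginning 64 and 34 bases before the start of the gene. In Bst2 the GAS match overlapped the first of a pair of ISRE matches by 3 bases. Rsad2 and Ifit1 held only ISRE matches, beginning 120 bases before the start in Rsad2 and 104 and 85 bases before it in Ifit1. The Irf1 promoter shown held only a GAS match, beginning 90 bases before the start. A further Irf1 promoter, not shown, held neither motif. Of the lower genes whose promoter is not shown, H2-D1 and H2-Eb1 held neither motif. Ifi35 held a GAS match beginning 7 bases after the start. Among the genes lower at 10 weeks that have a promoter here, 4 of 8 held the ISRE letters and 5 of 8 the GAS letters. Among those that did not pass, the counts were 10 of 19 and 3 of 19. Counted by gene, 3.99% of all genes with a promoter held the ISRE letters and 9.55% the GAS letters. The Irgm2 and Igtp promoters share long stretches of sequence, among them the paired matches, so they are not independent counts. A test between the genes that passed and the others was not made.

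All values that follow are log2 of the array intensity, with replicate 1 named before replicate 2, and differences are on the same log2 scale. A gene passed when its Benjamini-Hochberg adjusted p over all genes was under 0.05 in limma. Array medians lay between 34.3 and 37.4 in linear intensity, and the number of arrays limits the precision. Cardiomyocyte markers were high on every array, with summed intensities of 89730 to 114984. Replicate 1 of the 10-week WT hearts was the highest of the 8 arrays for 20 of the 33 genes. Replicate 1 of the 10-week KO hearts was the lowest for 21. The same counts over all genes were not made. The median absolute gap between replicates was 0.31 in 10-week WT and 0.22 in 10-week KO hearts, against 0.2 and 0.15 over all genes. The summed intensity of 8 liver markers was 5781 and 718 in 10-week WT hearts, and that of 6 kidney markers was 1033 and 299. Liver markers varied in other groups too. They summed to 1367 and 3732 in 4-week WT, 417 and 5722 in 4-week KO, and 482 and 580 in 10-week KO hearts. The results at 10 weeks are therefore given with all arrays and without single arrays.

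At 4 weeks none of the 33 genes passed the test between KO and WT hearts. limma called 0 of 33, and 0 had an unadjusted p under 0.05, against 0.0275% of all genes called and 3.73% with such an unadjusted p. The differences ranged from -0.44 for Irgm2 to 0.29 for the class II gene H2-Eb1, with a median of 0.00 against 0.01 over all genes, and 16 of 33 lay below 0, against 46.6% of all genes.

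At 10 weeks 12 of the 33 genes were lower in KO than in WT hearts and 0 were higher. They were the GTPases Gbp6, Irgm2, Igtp and Iigp1, the antiviral genes Rsad2, Ifi35 and Bst2, the transcription factor Irf1, the class I gene H2-D1, and the class II genes H2-Ab1, H2-Eb1 and Cd74. They make 36.4% of the set, while 12.1% of all genes were called, 6.89% lower and 5.19% higher. The difference was below 0 for 30 of the 33 genes, against 49.2% of all genes, and its median was -0.51 against 0.00. These genes have 31 further probe sets, which were tested singly in limma. Of these 25 were below 0 and 6 above, and 8 passed as lower and 0 as higher. Both KO arrays lay below both WT arrays for 24 of 33 genes, against 23.5% of all genes, and above them for 1, against 23.7%. The set was chosen with earlier results of these data known, so these shares describe it and do not test it. In whole hearts, fewer cells of a type and less RNA per cell cannot be told apart.

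**Figure D1:**
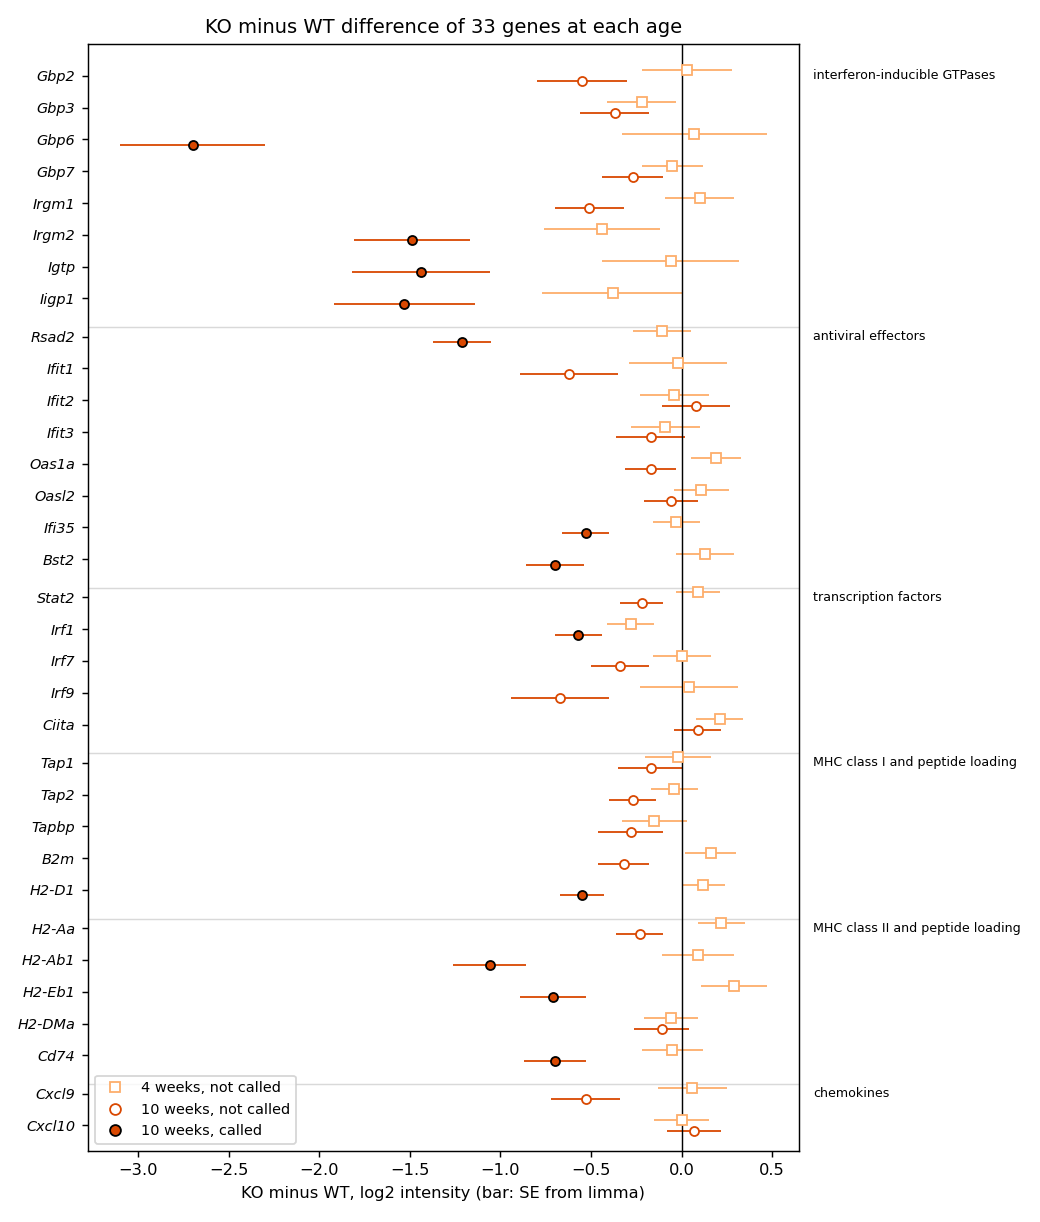
KO minus WT difference of each of the 33 genes in log2 intensity, with squares for 4 weeks, circles for 10 weeks, filled circles for genes that passed the test, and bars for the standard error from limma. At 4 weeks the differences lie between -0.44 and 0.29, and at 10 weeks 30 of 33 lie below 0, with Gbp6 lowest at -2.70.

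The interferon-inducible GTPases had the largest differences, with 4 of 8 lower at 10 weeks and a median of -1.0. Gbp6, a guanylate-binding protein, read 9.25 and 8.13 in WT hearts and 5.89 and 6.10 in KO hearts at 10 weeks, and 7.66 and 7.04 in WT and 6.92 and 7.93 in KO at 4 weeks. The 10-week groups lay far apart, while the 4-week groups overlapped. The 10-week difference was -2.70 ± 0.40 (SE), or 6.49-fold lower in KO, with an adjusted p of 0.00255 by limma. A further Gbp6 probe set was lower by a similar amount, with a difference of -2.30 (adjusted p = 0.00402 when every probe set was tested singly in limma).

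Igtp, Irgm2 and Iigp1 belong to the immunity-related GTPases, a family of the defence against microbes in vacuoles. Irgm2 read 8.0 and 6.81 in 10-week WT and 5.79 and 6.04 in 10-week KO hearts, against 7.01 and 6.75 in WT and 6.26 and 6.61 in KO at 4 weeks. Igtp read 9.16 and 7.66 in 10-week WT and 6.91 and 7.02 in 10-week KO hearts, against 7.93 and 7.65 in WT and 7.54 and 7.93 in KO at 4 weeks. Iigp1 read 9.66 and 8.19 in 10-week WT and 7.15 and 7.65 in 10-week KO hearts, against 8.98 and 8.62 in WT and 8.32 and 8.53 in KO at 4 weeks. In each of these genes the KO hearts were the lowest at 10 weeks and the groups did not overlap, but replicate 1 of the WT hearts was more than 1 log2 unit above replicate 2. The differences were -1.49 ± 0.32 for Irgm2 (adjusted p = 0.0152), -1.44 ± 0.38 for Igtp (0.0376) and -1.53 ± 0.39 for Iigp1 (0.0321). A further Iigp1 probe set was at -1.26 and did not pass (adjusted p = 0.118, probe sets tested singly in limma). Irgm2 and Igtp are the genes whose promoters, shown above, hold a GAS and an ISRE match side by side.

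The other GTPases did not pass. Their differences were -0.27 for Gbp7, -0.37 for Gbp3, -0.51 for Irgm1 and -0.55 for Gbp2, with adjusted p-values from 0.121 to 0.408. The smallest difference was that of Gbp7, which read 6.67 and 6.44 in WT and 6.14 and 6.43 in KO hearts at 10 weeks. A further probe set passed for each of Gbp2 and Gbp7, with differences of -0.73 (adjusted p = 0.0476) and -0.78 (0.0493) when probe sets were tested singly in limma.

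**Figure D2:**
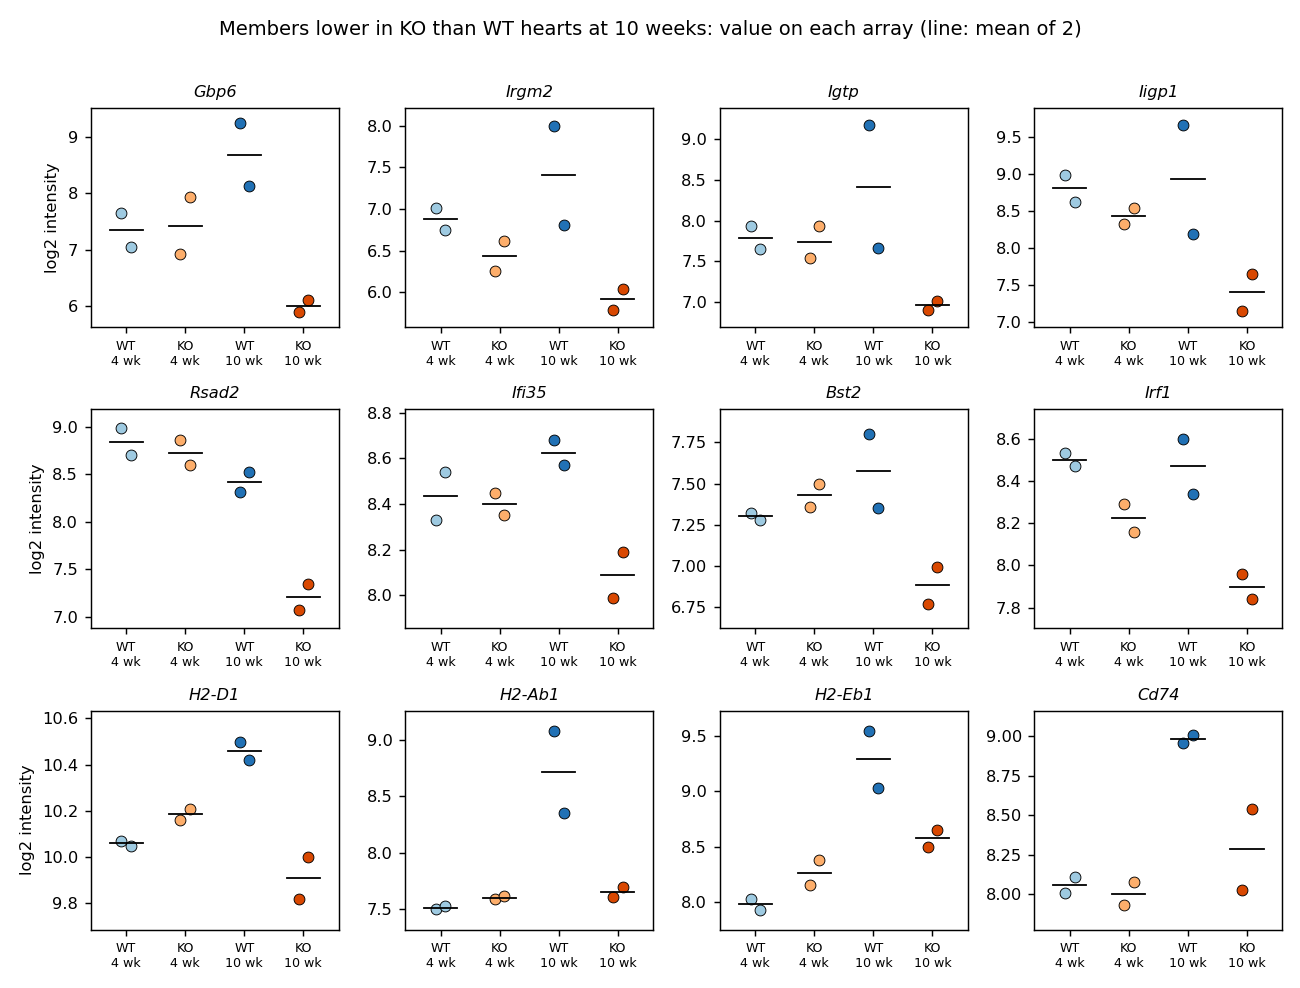
Log2 intensity on each of the 8 arrays for the 12 genes lower in KO hearts at 10 weeks, with a point per mouse and a line at the mean of 2. In every panel both 10-week KO hearts lie below both 10-week WT hearts, and for Irgm2, Igtp and Iigp1 the 10-week WT hearts differ from each other by more than 1 log2 unit.

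Among the antiviral effectors 3 of 8 were lower at 10 weeks, with a median of -0.35. Rsad2, which encodes viperin, a radical S-adenosylmethionine enzyme that blocks viral replication, read 8.31 and 8.53 in WT and 7.07 and 7.34 in KO hearts at 10 weeks. At 4 weeks it read 8.99 and 8.70 in WT and 8.86 and 8.60 in KO. The 10-week KO hearts were the lowest of all 8, and the WT replicates differed little. The difference was -1.21 ± 0.16, or 2.32-fold lower in KO (adjusted p = 0.0017). The 2 further Rsad2 probe sets did not give the same result when every probe set was tested singly in limma: 1 was at -1.10 (adjusted p = 0.0143), and the other, at 6.46 and 6.89 in WT and 6.43 and 6.22 in KO, was at -0.35 and did not pass (0.269).

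Bst2, or tetherin, which holds budding virus at the cell surface, read 7.80 and 7.35 in WT and 6.77 and 6.99 in KO hearts at 10 weeks, and 7.28 to 7.5 on the 4-week arrays. Ifi35, an interferon-induced leucine zipper protein, read 8.68 and 8.57 in WT and 7.99 and 8.19 in KO at 10 weeks, and 8.33 to 8.54 at 4 weeks. In both genes the 10-week KO hearts lay below every other heart. The differences were -0.70 ± 0.16 for Bst2 (adjusted p = 0.0235) and -0.53 ± 0.13 for Ifi35 (0.0308). The 2 further Ifi35 probe sets were at -0.49 and -0.30 and did not pass.

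The Ifit genes encode proteins that bind foreign RNA, and the Oas genes encode sensors of double-stranded RNA. None of the 5 measured passed. Ifit1 read 7.06 and 6.07 in WT and 5.81 and 6.07 in KO hearts at 10 weeks, so the groups overlapped at 6.07 to within rounding, with a difference of -0.62 ± 0.27 (adjusted p = 0.191). The differences of Ifit3, Oas1a and Oasl2 were -0.17, -0.17 and -0.06. Ifit2 was the gene of this group with a difference above 0, reading 5.89 and 6.28 in WT and 5.90 and 6.42 in KO (0.08 ± 0.19, adjusted p = 0.878).

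Of the 5 transcription factors 1 passed. Irf1, an activator induced by interferon gamma, read 8.60 and 8.34 in WT and 7.96 and 7.84 in KO hearts at 10 weeks, and 8.53 and 8.47 in WT and 8.29 and 8.16 in KO at 4 weeks. KO hearts were below WT hearts at both ages with no overlap, and only the 10-week difference passed (-0.57 ± 0.13, adjusted p = 0.0227, against -0.28 ± 0.13 at 4 weeks, adjusted p = 0.999). Irf9, a DNA-binding factor of the type I interferon response, had a larger but more variable difference: it read 7.43 and 6.43 in WT and 6.12 and 6.40 in KO at 10 weeks (-0.67 ± 0.27, adjusted p = 0.155). Stat2 and Irf7 differed by -0.22 and -0.34 and did not pass. Ciita, the master regulator of class II genes, read 4.88 and 4.86 in WT and 5.04 and 4.88 in KO (0.09 ± 0.13, adjusted p = 0.761). It lay below the array median on 8 of 8 arrays, and it was the gene of the set whose KO arrays were above the WT arrays at 10 weeks. The groups met at 4.88 to within rounding.

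Of the 5 genes of class I presentation 1 passed. H2-D1, a class I heavy chain, read 10.50 and 10.42 in WT and 9.82 and 10.00 in KO hearts at 10 weeks, and 10.07 and 10.05 in WT and 10.16 and 10.21 in KO at 4 weeks. The KO hearts were above the WT hearts at 4 weeks and below them at 10 weeks, and only the 10-week difference passed (-0.55 ± 0.12, adjusted p = 0.0167). Its partner B2m, the light chain, differed by -0.32 (adjusted p = 0.213), and the peptide transporter subunits Tap1 and Tap2 and their docking protein Tapbp by -0.17, -0.27 and -0.28, none of which passed. Tap1 had the smallest difference and read 6.38 and 6.33 in WT and 6.04 and 6.33 in KO at 10 weeks. H2-D1 has 9 probe sets here, and class I genes share much sequence. The probe set used is 1 marked by the maker as able to bind other transcripts. It therefore does not separate H2-D1 from its relatives with certainty. The 10-week call of H2-D1 depended on this choice. It was lost when all its probe sets were averaged, and again without probe sets of shared sequence (names ending in _x_at, _s_at or _a_at). Over the 19 alternatives the H2-D1 difference at 10 weeks ran from -0.64 to -0.29.

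Of the 5 genes of class II presentation 3 were lower in KO hearts at 10 weeks, with a median of -0.70. H2-Ab1, the beta chain of the A molecule, read 9.08 and 8.35 in WT and 7.61 and 7.70 in KO hearts at 10 weeks, and 7.5 and 7.53 in WT and 7.59 and 7.62 in KO at 4 weeks. H2-Eb1, the beta chain of the E molecule, read 9.55 and 9.03 in WT and 8.50 and 8.65 in KO at 10 weeks, and 8.03 and 7.93 in WT and 8.15 and 8.38 in KO at 4 weeks. Cd74, the invariant chain that guides class II molecules to the peptide-loading compartment, read 8.96 and 9.01 in WT and 8.03 and 8.54 in KO at 10 weeks, and 8.01 and 8.11 in WT and 7.93 and 8.08 in KO at 4 weeks. In all of these the 10-week WT hearts were the highest of the 8. The differences at 10 weeks were -1.06 ± 0.20 for H2-Ab1 (adjusted p = 0.00883), -0.71 ± 0.18 for H2-Eb1 (0.0292) and -0.70 ± 0.17 for Cd74 (0.0252).

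H2-Aa, the alpha chain that pairs with H2-Ab1, did not pass. It read 10.20 and 10.07 in WT and 9.94 and 9.88 in KO hearts at 10 weeks (-0.23 ± 0.13, adjusted p = 0.346), and 9.03 and 9.02 in WT and 9.11 and 9.37 in KO at 4 weeks. H2-DMa, which helps load peptides, read 6.47 and 6.10 in WT and 6.10 and 6.26 in KO at 10 weeks, with the smallest difference of the group (-0.11 ± 0.15, adjusted p = 0.759). H2-Aa has 4 probe sets here and H2-Ab1 has 3. With all probe sets of a gene averaged, H2-Ab1 passed at 10 weeks and H2-Aa did not. A test between the chains was not made. The probe sets used for H2-Aa and H2-Ab1 are also marked as able to bind other transcripts.

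**Figure D3:**
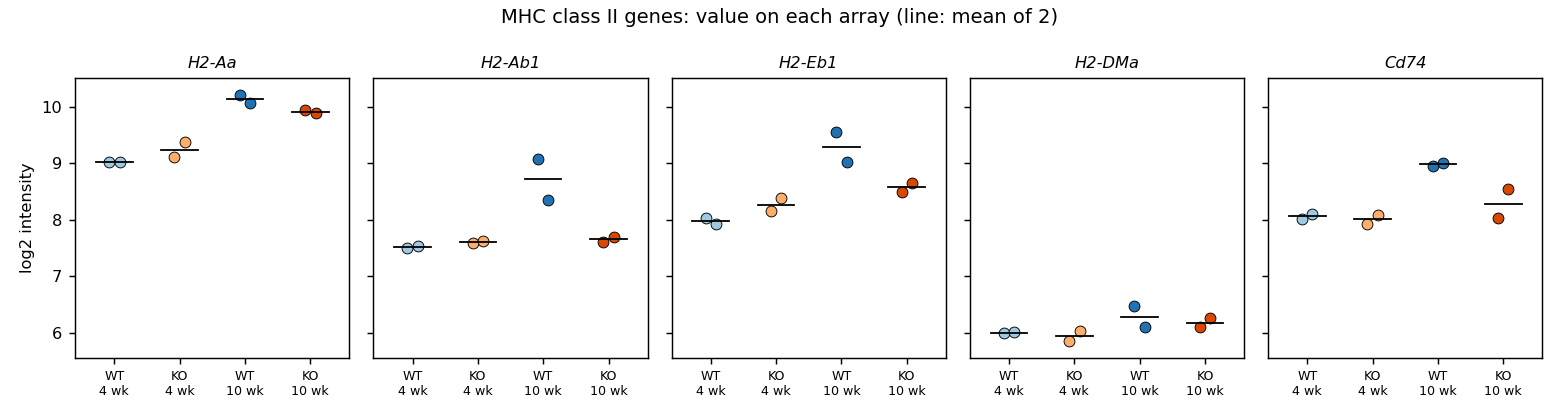
Log2 intensity of 5 genes of MHC class II presentation on each array, with a point per mouse and a line at the mean of 2 on a shared axis. The 10-week WT hearts are the highest for H2-Ab1, H2-Eb1 and Cd74, and for H2-Aa both 10-week groups lie above both 4-week groups.

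Neither chemokine passed. Cxcl9, an attractant of T cells induced by interferon gamma, read 6.58 and 6.15 in WT and 5.76 and 5.91 in KO hearts at 10 weeks (-0.53 ± 0.19, adjusted p = 0.126). Cxcl10, which acts on the same receptor, read 4.89 and 4.75 in WT and 4.79 and 4.99 in KO (0.07 ± 0.15, adjusted p = 0.855), below the array median on 8 of 8 arrays.

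Single arrays moved how many of these genes passed at 10 weeks. Without replicate 1 of the 10-week WT hearts 6 genes passed, all of them among the 12: Gbp6, Irgm2, Igtp, Rsad2, H2-Ab1 and Cd74. The difference was still below 0 for 29 of 33 genes, with a median of -0.30 against 0.02 over all genes. Among the GTPases, Irgm2 went from -1.49 to -0.89 (adjusted p = 0.0168), Igtp from -1.44 to -0.70 (0.0443), Iigp1 from -1.53 to -0.79 (0.0523) and Gbp6 from -2.70 to -2.14 (0.00512), while Gbp2 went from -0.55 to -0.59 and Gbp7 from -0.27 to -0.16. Ifit1 and Irf9, which had not passed, went from -0.62 to -0.13 and from -0.67 to -0.17. Rsad2 went the other way, from -1.21 to -1.32, and Cd74 from -0.70 to -0.72. H2-Ab1 went from -1.06 to -0.70 and H2-Eb1 from -0.71 to -0.45 (adjusted p = 0.109).

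Without replicate 1 of the 10-week KO hearts 2 genes passed, Gbp6 (-2.59, adjusted p = 0.0276) and Rsad2 (-1.07, 0.0195). Without replicate 2 of the 10-week KO hearts, replicate 1 or replicate 2 of the 4-week WT hearts, 5 passed in each case, and without replicate 2 of the 10-week WT hearts 17. Gbp6 and Rsad2 passed in each of the 8 fits that left out an array. H2-Ab1 passed in 7 of them, Irgm2 and H2-D1 in 6, Cd74 in 5, Bst2, Irf1 and H2-Eb1 in 3, Igtp in 2, and Iigp1 and Ifi35 in 1.

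**Figure D4:**
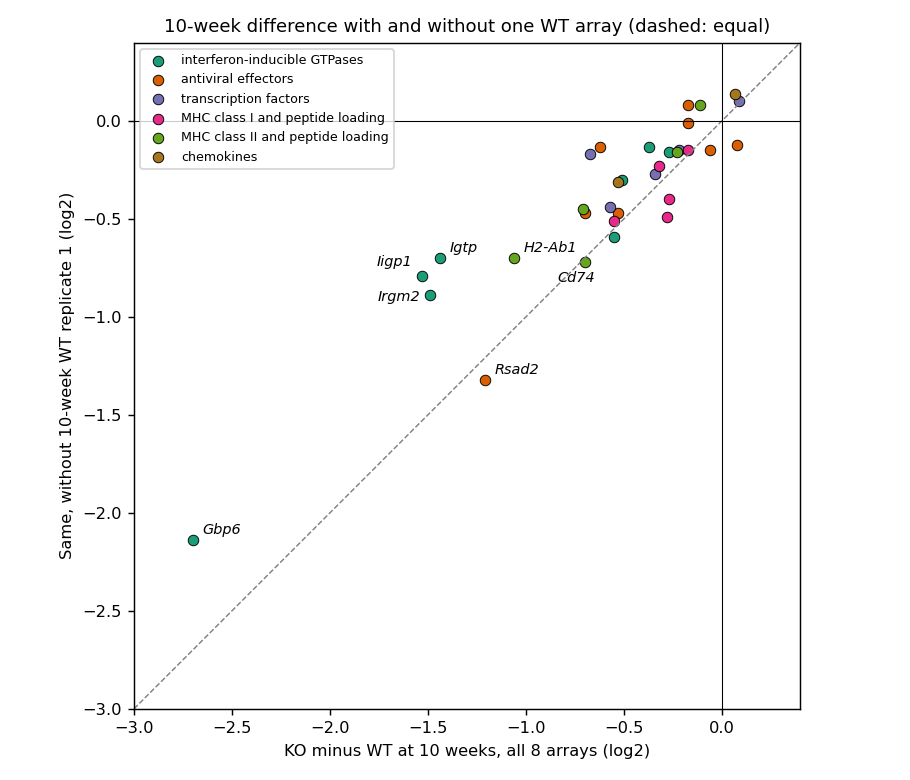
KO minus WT difference at 10 weeks with all 8 arrays (x axis) and without replicate 1 of the 10-week WT hearts (y axis), in log2 intensity, with a point per gene coloured by role and a dashed line where both are equal. Irgm2, Igtp and Iigp1 move towards 0, to -0.89, -0.70 and -0.79, Gbp6 moves from -2.70 to -2.14, and Rsad2 lies below the line at -1.32.

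The change of the KO minus WT difference from 4 to 10 weeks was tested directly. 2 of 33 genes passed, both towards lower values in KO, against 2.08% of all genes called, 1.2% lower and 0.879% higher. Gbp6 changed by -2.77 ± 0.56 (adjusted p = 0.0435) and Rsad2 by -1.10 ± 0.23 (0.0483). The change was below 0 for 31 of 33 genes, against 52.7% of all genes, with a median of -0.48 against -0.02. Among the class II genes the changes were -1.16 for H2-Ab1 (adjusted p = 0.084) and -1.0 for H2-Eb1 (0.0871), and H2-D1 changed by -0.67 (0.0889). Both calls were lost without either 4-week replicate of WT or of KO and without either 10-week KO replicate, and the count was 3 without replicate 1 of the 10-week WT hearts and 11 without replicate 2.

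Within a genotype the ages differed in few of these genes. In WT hearts 2 of 33 genes were higher at 10 than at 4 weeks and 0 were lower, against 0.0495% of all genes called higher, 0.066% called lower and 0.115% called in all. The difference was below 0 for 10 of 33 genes, against 42.8% of all genes. Those higher were the class II genes H2-Aa, at 10.20 and 10.07 against 9.03 and 9.02 (1.12 ± 0.13, adjusted p = 0.0188), and H2-Eb1, at 9.55 and 9.03 against 8.03 and 7.93 (1.31 ± 0.18, 0.0334). H2-Ab1 and Cd74 differed by 1.21 (adjusted p = 0.0744) and 0.93 (0.0923). In all of these genes every 10-week WT heart was above every 4-week WT heart. Neither gene passed without either 4-week WT replicate or either 10-week KO replicate, H2-Eb1 was also lost without either 4-week KO replicate, and the count of genes was 10 without replicate 2 of the 10-week WT hearts.

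In KO hearts 1 of 33 genes was lower and 1 higher at 10 weeks, against 7.07% of all genes called lower, 3.42% called higher and 10.5% called in all. The difference was below 0 for 25 of 33 genes, against 43% of all genes. Rsad2 was lower, at 7.07 and 7.34 against 8.86 and 8.60 (-1.52 ± 0.16, adjusted p = 0.000764), and it passed in each fit that left out an array. H2-Aa was higher, at 9.94 and 9.88 against 9.11 and 9.37 (0.67 ± 0.13, adjusted p = 0.0125), and it lost its call without replicate 1 of the 4-week KO hearts or replicate 1 of the 10-week KO hearts. Gbp6 was at 5.89 and 6.10 against 6.92 and 7.93 (-1.43 ± 0.40, adjusted p = 0.0505). The count was 10 without either 10-week WT replicate. The comparisons of the ages share arrays with the comparisons of the genotypes. Over all genes the KO hearts gave 622 higher and 1286 lower, and 919 higher and 1102 lower after a further quantile normalization.

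The rest of the pathway was read from 7 lists of 128 other genes, 114 of them measured. At 4 weeks 0 of 114 passed. At 10 weeks 10 of 114 (8.77%) were lower and 5 (4.39%) higher in KO hearts, with a median of -0.06. Both shares lay near those of all genes, 6.89% lower and 5.19% higher, so the counts are no result about these lists as a whole.

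Of the interferons and their inducers, 0 of 6 passed, and Ifng, Ifna4, Il12a and Il12b, 4 of the 6, lay below the array median on every array. Those with the smallest p were Il12a, a subunit of interleukin 12, at -0.32 (adjusted p = 0.185) and Ifnb1, interferon beta, at -0.26 (0.445). Of 11 receptor and signalling genes 1 was lower and 1 higher. Ifngr2, a subunit of the interferon gamma receptor, read 9.74 and 9.43 in WT and 8.51 and 8.81 in KO hearts at 10 weeks, with no overlap (-0.92 ± 0.16, adjusted p = 0.00534). Ptpn2, a phosphatase that switches off JAK and STAT proteins, was higher (0.72 ± 0.17, 0.024). Of 16 sensors and relays of nucleic acids, Ifih1, a sensor of viral RNA, was lower (-0.60, 0.00926), and of 7 feedback inhibitors Usp18, which removes ISG15 from proteins, was lower (-0.65, 0.0142).

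Of 42 other interferon-induced genes 6 were lower and 0 higher at 10 weeks, against 6.89% and 5.19% of all genes. The lowest were Rtp4, a receptor transporter protein, at -1.08 (adjusted p = 0.0219), Psme1, a proteasome activator subunit, at -1.07 (0.00151), Trim25, a ubiquitin ligase of RNA sensing, at -0.74 (0.00595), and Cmpk2, a mitochondrial nucleotide kinase and the neighbour of Rsad2, at -0.68 (0.00458). Psme1 read 10.70 and 10.53 in WT and 9.44 and 9.65 in KO hearts at 10 weeks. Rtp4 was at -0.64 (adjusted p = 0.0474) without replicate 1 of the 10-week WT hearts.

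Of 21 other genes of antigen presentation 2 were higher and 1 lower. Ctsl and Ctss, the cathepsins that trim the invariant chain and antigens in lysosomes, were higher, and Canx, the chaperone of class I heavy chains, was lower (-0.51, adjusted p = 0.0286). Ctsl read 11.01 and 10.86 in WT and 12.05 and 12.16 in KO hearts at 10 weeks (1.17 ± 0.12, adjusted p = 0.000447), and Ctss 9.57 and 9.02 in WT and 10.58 and 9.96 in KO (0.98 ± 0.22, 0.0203). Both KO hearts were above both WT hearts for each cathepsin, while the class II chains and Cd74 were below. Ctsl was also the gene of these lists whose KO minus WT difference changed with age (0.91 ± 0.17, adjusted p = 0.0314). Of 11 other chemokines and receptors Ccl7 (0.66, 0.0366) and Cxcl16 (0.45, 0.0457) were higher.

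Of the 15 calls, those of Ifngr2, Trim25, Cmpk2, Psme1 and Ctsl passed in each of the 8 fits that left out an array. Ifih1 and Usp18 passed in 7 of the 8, Ctss in 6, Rtp4 in 5 and Ptpn2 in 3. Canx and Ccl7 passed in 1 and Cxcl16 in 0, and Psmb8 and Trim21, the other 2 that were lower, in 6 and 3. The count of lower genes ran from 5, without replicate 1 of the 10-week KO hearts, to 18, without replicate 2 of the 10-week WT hearts, and that of higher genes from 2 to 7. Without replicate 1 of the 10-week WT hearts the counts were 12 lower and 6 higher.

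From 4 to 10 weeks 0 of the 114 genes passed in WT hearts, and in KO hearts 12 (10.5%) were lower and 7 (6.14%) higher. Over all genes 0.115% passed in WT hearts, and 7.07% were lower and 3.42% higher in KO hearts, so many more genes passed in KO than in WT hearts across the whole array too. The lower ones included Psme1 (-1.11, adjusted p = 0.00179), Trim25 (-1.09, 0.00133), Ifngr2 (-0.89, 0.00756), Ube2l6, the conjugating enzyme of ISG15 (-0.80, 0.033), Dtx3l (-0.75, 0.0353), Ptpn11 (-0.67, 0.0267), Usp18 (-0.65, 0.017) and Ifih1 (-0.50, 0.0258). The higher ones were the chemokines Ccl8 (2.03, 0.0125), Ccl12 (0.76, 0.0401), Ccl7 (0.67, 0.0407) and Cxcl16 (0.62, 0.0138), with Ctss (1.32, 0.00621), Ctsl (0.80, 0.00338) and the receptor subunit Ifngr1 (0.46, 0.0419). In the 8 fits that left out an array, Psme1, Trim25 and Ctsl passed in each, Ctss in 7, Ifngr2 in 6, Usp18, Ccl8 and Cxcl16 in 5, Ube2l6 in 4, Dtx3l, Ccl7 and Ccl12 in 3, and Ptpn11, Ifih1 and Ifngr1 in 2.

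Markers of the cells that could carry these transcripts were read on the same arrays. Over all genes 6.89% were called lower and 5.19% higher in KO hearts at 10 weeks. Macrophage markers went opposite to the set: 5 of 12 were higher and 0 lower in KO hearts at 10 weeks, among them Cd68 (1.80, adjusted p = 0.000452) and Csf1r (1.11, 0.00426), and their summed intensity was 9877 and 7955 in KO against 6240 and 5463 in WT. Of 10 markers of T and NK cells and 7 of dendritic cells 0 passed, and 7 and 5 of them lay below the array median on average. The dendritic cell sums were 441 and 395 in WT and 444 and 397 in KO hearts, and the T and NK cell sums 501 and 458 in WT and 539 and 468 in KO.

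Of 6 B cell markers 2 were lower in KO hearts at 10 weeks, Ms4a1 and Cd79b. Cd79a was at -0.36 and did not pass (adjusted p = 0.348 by limma), and Cr2, Ighm and Pax5 were at -0.10, -0.07 and 0.00. Ms4a1 read 5.03 and 6.13 in WT and 4.46 and 4.38 in KO (-1.16, adjusted p = 0.0248), and Cd79b 5.80 and 6.16 in WT and 5.37 and 4.85 in KO (-0.87, 0.0333). Ms4a1 was at -1.71 without replicate 1 and at -0.61 without replicate 2 of the 10-week WT hearts, and lost its call without either 4-week WT array or either 10-week KO array. Cd79b lost its call without either 4-week WT array, replicate 2 of the 10-week WT hearts (-0.69) or replicate 2 of the 10-week KO hearts (-0.61). The B cell sums were 414 and 483 in WT and 382 and 349 in KO hearts. At 4 weeks Cd79a, Cd79b and Ms4a1 were at -0.40, -0.45 and -0.47, with both KO hearts below both WT hearts. Cr2, Ighm and Pax5 were at -0.09, -0.01 and 0.08 at that age, and 0 of the 6 markers passed. Neutrophil markers summed to 3557 on replicate 1 of the 10-week KO hearts and to 277 to 477 on the other arrays. S100a8 and S100a9 read 10.94 and 10.43 on that KO array and 5.71 and 4.96 on its replicate. Mpo, Elane and Csf3r did not share that gap, at 5.44, 6.56 and 6.27 against 5.30, 6.51 and 5.98. Of 8 cardiomyocyte markers 3 were lower, with sums of 98705 and 112694 in WT and 89730 and 98469 in KO, and of 7 fibroblast markers 5 were higher.

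Of 8 endothelial markers Esam was lower and Emcn higher. The kidney gene Kap was lower in KO hearts at 10 weeks, at 9.73 and 7.29 in WT and 5.80 and 5.83 in KO (-2.70, adjusted p = 0.0218), and liver markers had a median of -2.09 with 0 of 8 called. For these marker lists, their part in the result was not tested.

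**Figure D5:**
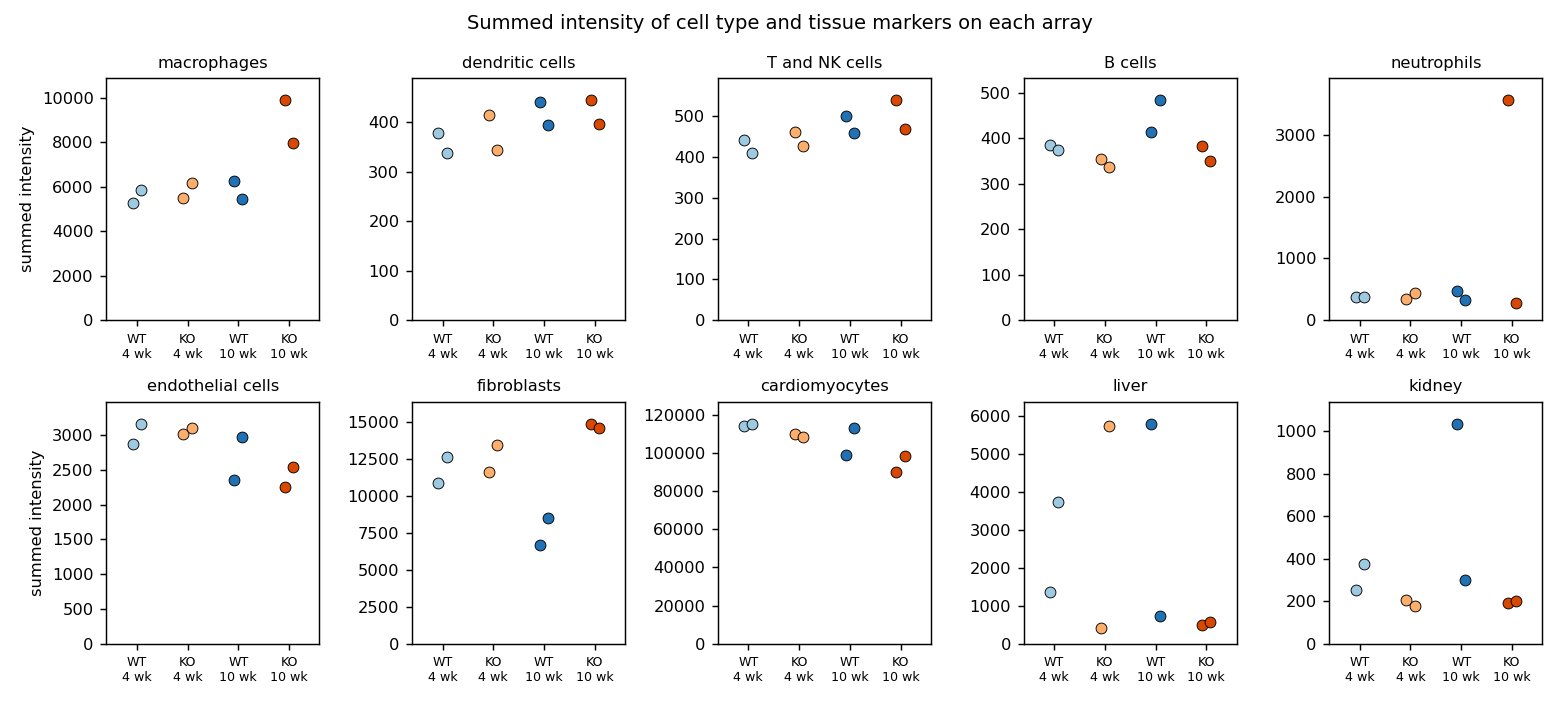
Summed linear intensity of the markers of 10 cell types and tissues on each array, with a point per mouse and each axis starting at 0. Macrophage sums are highest in 10-week KO hearts (9877 and 7955), the kidney sum is highest on replicate 1 of the 10-week WT hearts (1033), and the neutrophil sum on replicate 1 of the 10-week KO hearts (3557).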

How the data were processed

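Total RNA of 8 hearts was extracted with TRIzol, labelled with biotin and hybridised to 1 array each, per the labels' protocols. The deposited table holds probe set intensities on a linear scale, for which the submitters' processing notes name GCOS 1.3 and RMA. Here log2 was taken, with no pseudocount (lowest value 4.90). Of 45101 probe sets, 64 controls were left out, and 34945 name 1 gene, 932 several and 9160 none in the platform annotation. Probe sets that name several genes or none were not used. Each of 18193 genes was represented by its brightest probe set (mean over the 8 arrays).

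All 8 arrays entered 1 linear model of the 4 group means in limma 3.58.1 under R 4.3.3, with lmFit and eBayes at their default settings (residual degrees of freedom 4, total 9.33). Tests were two-sided and adjusted by Benjamini-Hochberg over all genes within each of 5 comparisons. Differences between KO and WT had a median SE of 0.145. Alternatives were other rules for the probe set of a gene, filters on dim genes, normalization, variance settings, array weights, fewer groups, a replicate block and single arrays left out. The script was tested on simulated data. Replicates are separate mice. The labels name no batch or processing day and do not pair the replicate numbers.

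The members, the pathway and marker lists and the alternatives were chosen with earlier results of these data known. A member was described array by array where it passed in any comparison or had the largest or smallest difference of its role group, or KO and WT arrays that did not overlap in the direction opposite to its role group. From each pathway list up to 4 called genes with the largest difference, or the 2 with the smallest p, were named. Promoters were matched by symbol. The deleted gene is not reported here.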

Additional observations from a re-analysis of the deposited data

Results flagged for a closer look

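For 2 genes the KO effect differed between the ages by a test of the difference itself (limma, adjusted over all genes). The KO minus WT difference of Gbp6 changed by -2.77 from 4 to 10 weeks, from 0.07 to -2.70, with both KO hearts below both WT hearts at 10 weeks and overlapping groups at 4 weeks. That of Rsad2 changed by -1.10, from -0.11 to -1.21, and both KO hearts were below both WT hearts at 10 weeks. Age and litter cannot be told apart in this difference. Groups of 2 are too small for a test of an outlying mouse.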

How the results depend on the processing

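At 4 weeks 0 of the 33 genes passed in each of 19 alternatives. At 10 weeks 12 passed, and the count was 7 without probe sets of shared sequence (23 genes in that fit), 2 with only the 10-week groups (4 arrays), and 2 to 17 leaving out 1 array. No called difference changed sign in any alternative, and Gbp6 and Rsad2 passed at 10 weeks in all 19. For the change of the difference, where 2 passed, the count was 0 with probe sets averaged per gene, with arrays centred on their medians and with trended, robust variances, 1 with every probe set tested singly, 4 with array weights, and 0 to 11 leaving out 1 array. From 4 to 10 weeks in WT, where 2 passed, the count was 1 without probe sets of shared sequence and with centred arrays, 0 with only the WT groups, and 0 to 10 leaving out 1 array. In KO, where 2 passed, it was 1 without probe sets of shared sequence, 7 with array weights, 6 with only the KO groups, and 1 to 10 leaving out 1 array. For these the cause was not tested. H2-Aa, H2-Ab1, Cd74 and Irf1 were not in the fits without probe sets of shared sequence, as they have no other kind here. That kind covers names ending in _x_at, _s_at or _a_at, and _a_at marks sequence shared by transcripts of 1 gene. Where an array was left out, the lone array of its group was assumed to vary like the other groups.

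With the replicate number as a block within each age the member counts were 0 at 4 weeks, 12 at 10 weeks, 2 for the change, and 3 for each age comparison, where H2-Ab1 was gained in WT and Oasl2 in KO hearts, and it changed no other call. Differences between replicates 1 and 2 correlated between WT and KO at 0.30 at 4 weeks and 0.23 at 10 weeks over 18193 genes, with only 2 pairs an age. The labels do not pair the mice, and these values do not settle it, so they were not treated as pairs.

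Over all genes, 2199 were called at 10 weeks, against 959 with only the 10-week groups and 1154 to 3244 leaving out 1 array. The change of the difference gave 379, against 211 with centred arrays, 751 with the block and 40 to 1600 leaving out 1 array. The ages in WT gave 21, against 12 with centred arrays, 45 with trended, robust variances, 159 with the block, 3 with only the WT groups and 4 to 2946 leaving out 1 array, the highest being without replicate 2 of the 10-week WT hearts. The ages in KO gave 1908, against 527 to 3035 leaving out 1 array. At 4 weeks 5 were called, against 14 with array weights, 13 with only the 4-week groups and 3 to 12 leaving out 1 array. Ciita and Cxcl10 lay below the array median on every array, which limits what their differences can show.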
